A study of Homo sapiens with 6 samples.

Results

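Enterocytes sense cytokines through paired receptor chains at the cell surface, and 10 genes that encode such chains are described here. They are IFNGR1 and IFNGR2 for interferon gamma, IL4R and IL13RA1 for IL-4 and IL-13, IL6R, IL6ST, OSMR and LIFR for the IL-6 family, and IL22RA1 and IL10RB for IL-22. Members were taken as every probe set annotated to exactly 1 of these symbols, which gave 29 of the 54675 probe sets on the array and 10 of 19775 genes. Caco-2, a human colorectal adenocarcinoma line with features of small-intestinal enterocytes, was grown for 14 days on a permeable membrane. It was then set above THP-1, a human monocytic leukaemia line made macrophage-like by 4 days with phorbol myristate acetate, in plates with 12 wells. RNA of the Caco-2 cells was hybridised to 1 array at each of 0, 1, 3, 6, 24 and 48 h of coculture, so each group is a single sample and no test was possible. The 0 h array was the only one without coculture, and the time in coculture and any other change over the same hours cannot be told apart.

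These receptors have no kinase of their own. Binding of the ligand brings together chains that carry Janus kinases, which then phosphorylate STAT transcription factors. The interferon gamma receptor joins a ligand-binding chain, IFNGR1, with a signalling partner, IFNGR2. In epithelial cells the IL-4 receptor chain IL4R pairs with IL13RA1. IL6ST, also called gp130, is the shared signalling chain of the IL-6 family. IL6R, LIFR and OSMR lend it specificity for IL-6, leukaemia inhibitory factor and oncostatin M. IL22RA1 pairs with IL10RB, a chain that receptors for IL-10 and for lambda interferons also use.

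Median signals of the 6 arrays lay between 15.3 and 16.7. Signals under a floor of 16.2, the pooled median, were set to that floor, and a gene counted as measured when 1 array or more was above it (14760 genes). Calls of higher or lower required a ratio to 0 h of 2-fold or more, with the brighter array above the floor. Of 13 enterocyte markers with a probe set, 13 were above the floor on each array, but some of them changed in level. At 3 and 6 h, when receptor chains were called, KRT20, a keratin of mature enterocytes, was higher and CDX2, an intestinal transcription factor, was lower. KRT20 had signals of 207, 263, 545, 674, 836 and 412 over the 6 times and CDX2 had 89.2, 103, 25.4, 36.9, 53.5 and 75.03. At 24 h KRT20 and GPA33 were higher and FABP1 lower, and at 48 h FABP1, SI and LGALS4 were lower. Of 14 macrophage markers, PTPRC, SPI1, MRC1 and LST1 were under the floor on all arrays, and 5 (CD14, LYZ, ITGAM, AIF1 and LAPTM5) were above it on all. AIF1 was lower at 3, 6, 24 and 48 h, with 360.0, 229, 111, 153, 96.5 and 43.0 over the 6 times, and FCER1G was lower at 1, 3 and 6 h, at or under about the floor against 37.7 at 0 h. The summed signal of the 14 was 777, 555, 647, 699 and 679 at 1, 3, 6, 24 and 48 h, against 903 at 0 h, so it was lowest at 3 h. AIF1 is a large part of this sum at 0 h. At 1, 24 and 48 h AIF1 alone fell by more than the sum, so the other markers together were not lower then. At 3 and 6 h they were lower together. For ACTB, the control probes at the 3' end gave more signal than those at the 5' end by a ratio that depends on RNA integrity and labelling and that was 51.2, 27.7, 22.9, 18.0, 27.9 and 37.0 at 0, 1, 3, 6, 24 and 48 h. The ACTB ratio was thus lowest at 3 and 6 h, when most receptor signals described here were highest. For GAPDH the same ratio was 4.69, 3.81, 4.29, 3.54, 4.72 and 4.23. It too was lowest at 6 h, but at 3 h it was above its values at 1 and 48 h. The part of these ratios or of the marker changes in the receptor values was not tested. In such bulk RNA, fewer cells of a kind and less RNA per cell cannot be told apart.

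Of the 10 receptor chains, 4 were at least 2-fold higher at 3 h and the same 4 at 6 h: IFNGR1, IFNGR2, IL4R and IL6R. Among all measured genes, 3.1% were higher at 3 h and 4.21% at 6 h. At 1, 24 and 48 h no chain was, compared with 1.9%, 3.92% and 3.82% of measured genes. None was lower at any time, against 1.46%, 3.52%, 6.44%, 6.12% and 6.11% of measured genes at 1, 3, 6, 24 and 48 h. At one time or another 8.98% of measured genes were higher and 12.9% lower. At least 2-fold higher at both 3 and 6 h were 2.2% of measured genes, and 37.2% of those were less than 1.5-fold from 0 h at 48 h, as were IL4R, IFNGR1 and IFNGR2 but not IL6R. Counted by probe set, 2, 11, 9, 6 and 4 of the 29, of which 20 were measured, were higher at 1, 3, 6, 24 and 48 h and none lower. IL6ST alone gave 1, 4, 3, 4 and 4 of these, mostly as bounds from a 0 h signal under the floor. Of 28029 measured probe sets with 1 symbol, 2.82%, 4.99%, 5.88%, 5.06% and 5.36% were higher, and 1.54%, 3.14%, 5.6%, 5.05% and 4.84% lower. Over the 10 chains the median log2 ratio was 0.12, 0.30, 0.55, 0.24 and -0.01 in the same order. Over all measured genes it lay between -0.04 and 0. OSMR and LIFR sat at the floor and hold the median down. Without them, a choice made after seeing the data, it was 0.69 at 3 h and 0.90 at 6 h over 8 chains. The median of genes above the floor on all 6 arrays was itself shifted by -0.10 at 3 h and -0.14 at 6 h.

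**Figure D1:**
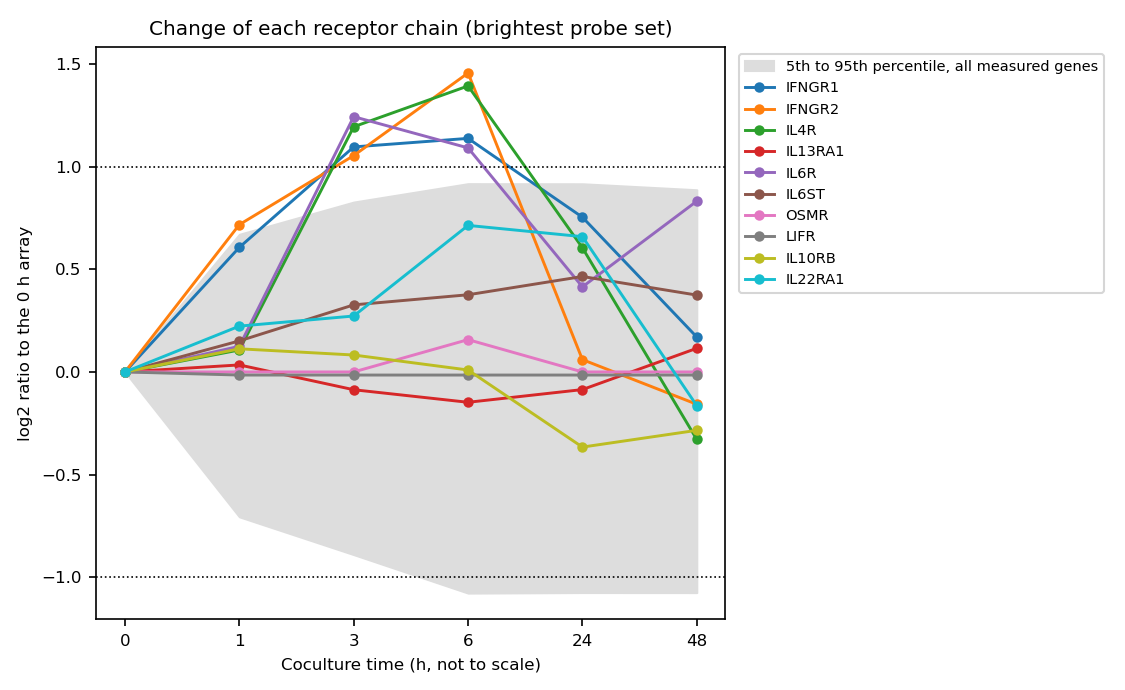
Log2 ratio to the 0 h array (vertical axis) of the brightest probe set of each of the 10 receptor chains at each coculture time (horizontal axis, not to scale), with the 5th to 95th percentile of all measured genes in grey and dotted lines at 2-fold. IFNGR1, IFNGR2, IL4R and IL6R lie above the upper line at 3 and 6 h, and the other 6 chains stay between the lines.

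**Figure D2:**
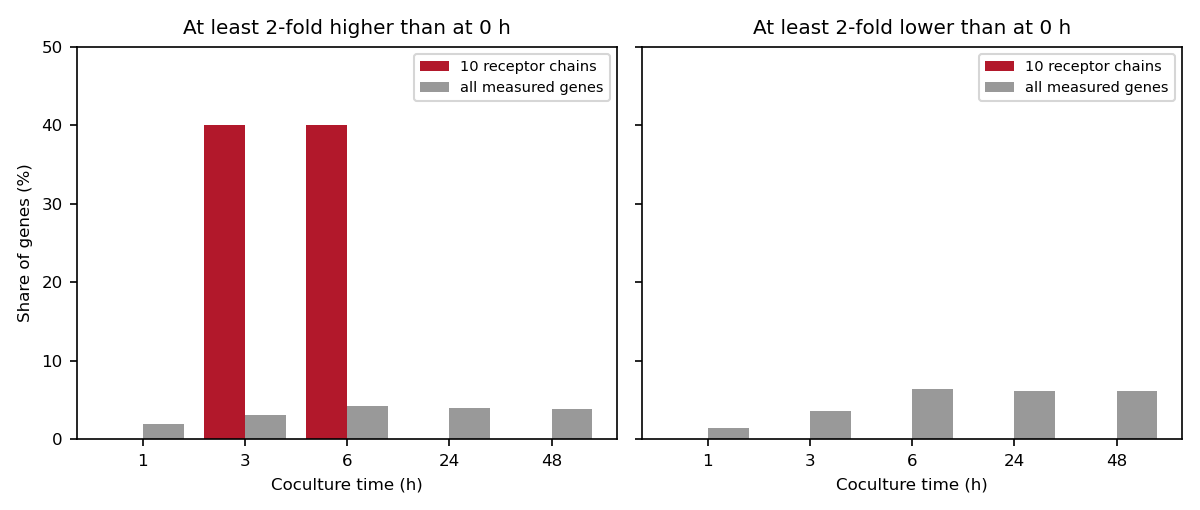
Share of the 10 receptor chains (red) and of all measured genes (grey) that were at least 2-fold higher (left) or lower (right) than at 0 h, by coculture time in h. The red bars are 4 of 10 at 3 and 6 h and 0 elsewhere, while the grey bars lie between 1.46% and 6.44%.

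With no replicate arrays, the only internal measure of error is the disagreement between probe sets of 1 gene. Its robust SD in the log2 ratio to 0 h was larger at low signals and mostly larger at later times. Between signals of 512 and 1024 it was 0.21, 0.26, 0.34, 0.34 and 0.40 at 1, 3, 6, 24 and 48 h, and between 128 and 256 it was 0.33, 0.35, 0.40, 0.44 and 0.43. Variation between cultures is not part of it. Below, 2 times are said to lie within the spread where their log2 difference is under the SD computed in the same way for that pair of arrays, which was 0.11 to 0.43 over the steps compared. A single SD is a low bar that an unchanged gene often passes. A step beyond the spread is therefore a description and not a shown change.

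Both chains of the interferon gamma receptor were above their 0 h level by 1 h, highest at 6 h and within 1.13-fold of 0 h at 48 h. The brightest of 3 IFNGR1 probe sets had signals of 2406, 3666, 5146, 5297, 4059 and 2708 at 0, 1, 3, 6, 24 and 48 h. The arrays at 3 and 6 h were the highest and did not differ beyond the spread. All 5 coculture arrays were above 0 h, with ratios of 1.52, 2.14, 2.20, 1.69 and 1.13. IFNGR2 (1 probe set) had signals of 353, 581, 734, 970, 368 and 317. Each of the steps from 6 h down to 3 h, to 1 h and to 24 h was beyond the spread, whereas 24, 0 and 48 h lay within it of each other in turn. Ratios of the 1, 3 and 6 h arrays to 0 h were 1.64, 2.08 and 2.75 for IFNGR2, and 1.57% of measured genes had a higher ratio at 6 h. At 24 h the chains differed, with log2 ratios of 0.75 for IFNGR1 and 0.06 for IFNGR2. On the brightest probe set these were the only chains 1.5-fold higher at 1 h, a size that 6.5% of measured genes reached, although 3 dimmer probe sets of IL6ST passed it too.

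The other IFNGR1 probe sets gave larger ratios, and the dimmest had another order of times. The second had signals of 364, 636, 1359, 1472, 661 and 412, 4.04-fold higher at 6 h. The dimmest had signals of 43.2, 142, 280.0, 192, 92.8 and 65.3, 6.48-fold higher at 3 h. On all 3 probe sets the arrays at 3 and 6 h were above those at 0, 1, 24 and 48 h. On the dimmest, however, 3 h was 1.45-fold above 6 h, a log2 difference of 6 h from 3 h of -0.54 that is beyond the spread of 0.23, whereas on the other two 3 and 6 h lay within it. At 48 h the dimmest was 1.51-fold above 0 h, against 1.13-fold for the other two. The size of the change at 3 h ran from 2.14-fold to 6.48-fold by probe set.

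The IL-4 receptor chain IL4R was level at 1 h and high at 3 and 6 h. Its single probe set had signals of 182, 196, 416, 478, 277 and 145 at 0, 1, 3, 6, 24 and 48 h. The arrays at 0 and 1 h lay within the spread of each other, and those at 3 and 6 h were higher than all the rest. Ratios of the 1, 3, 6 and 24 h arrays to 0 h were 1.08, 2.29, 2.63 and 1.52. At 48 h the log2 ratio was -0.33, within the spread of 0.43. The change from 6 h to 48 h was 3.30-fold downward, against 2.63-fold upward from 0 h to 6 h. These sizes differ by the ratio of 48 h to 0 h, which lay within the spread.

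IL13RA1, the partner of IL4R for IL-4 and a receptor for IL-13, was flat on its brightest probe set. The signals were 589.7, 604, 555, 532, 556 and 639, and each step in their order lay within the spread. The lowest was at 6 h, when IL4R was highest, but its log2 ratio of -0.15 lay within the spread of 0.34. Of the 3 dimmer probe sets, one stayed between 125 and 158 and another between 141 and 203. The third had signals of 128, 185, 215, 237, 209 and 211, with a ratio of 1.85 at 6 h. No IL13RA1 probe set reached 2-fold, but the log2 ratios at 6 h ran from -0.15 to 0.88. The reading thus depends on the probe set, from flat to higher, and none fell beyond the spread.

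**Figure D3:**
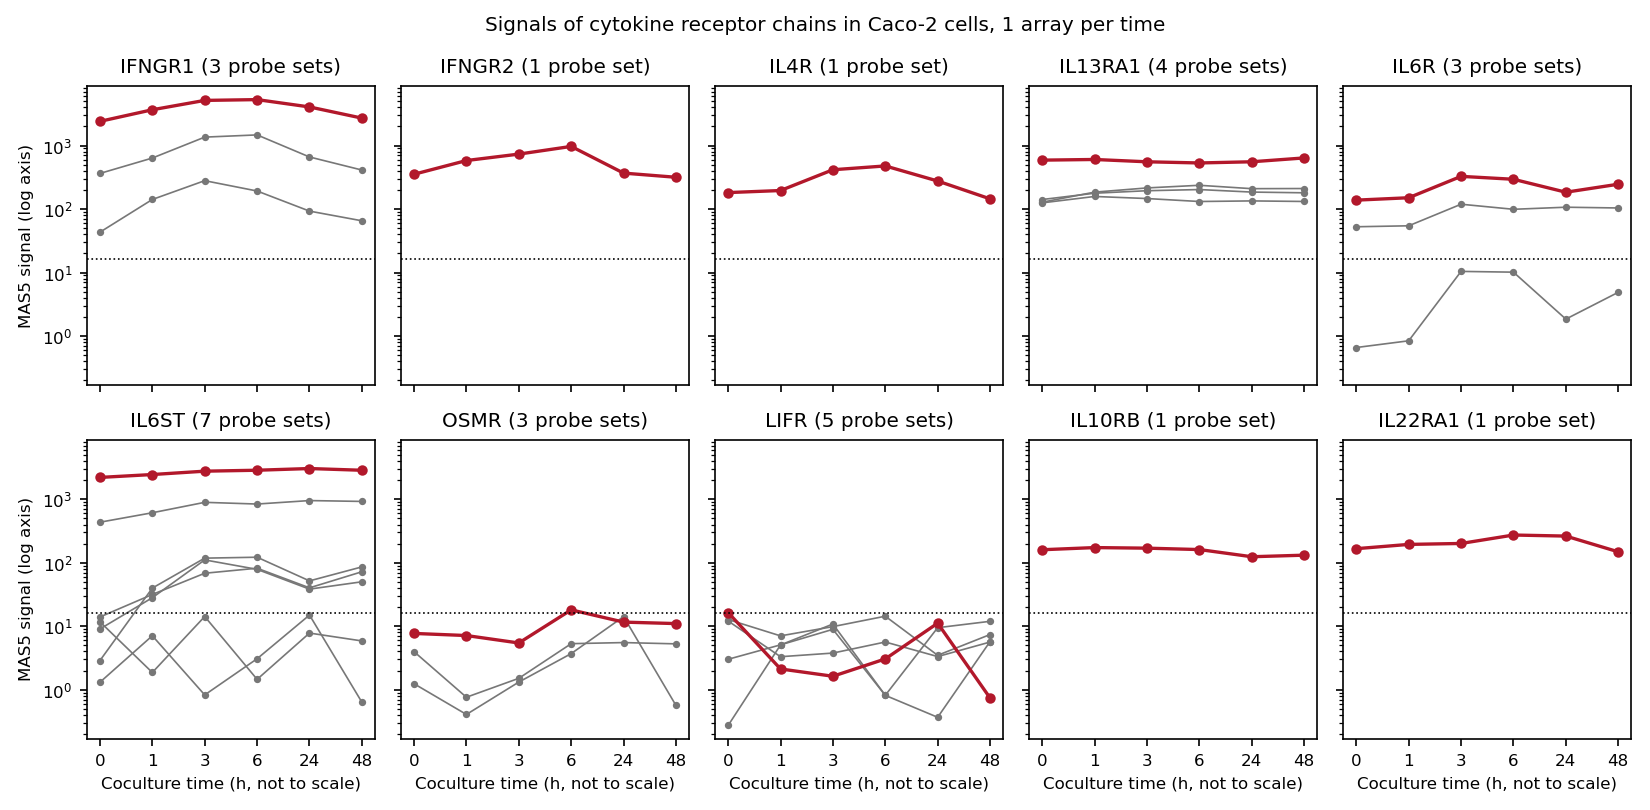
MAS5 signal on a log axis against coculture time in h (not to scale) for every probe set of the 10 receptor chains, 1 array per time; red marks the brightest probe set of a gene, grey the others, and the dotted line the floor of 16.2. IFNGR1, IFNGR2 and IL4R form an arch with its top at 6 h on the red line, and all OSMR and LIFR lines lie at or under about the floor.

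IL6R, the chain that binds IL-6, was higher at 3 and 6 h and above its 0 h level on all later arrays. Its brightest probe set had signals of 138, 151, 327, 295, 184 and 246 at 0, 1, 3, 6, 24 and 48 h. The arrays at 3 and 6 h were highest and lay within the spread of each other, as did those at 0 and 1 h. Ratios of the 3, 6, 24 and 48 h arrays to 0 h were 2.37, 2.13, 1.33 and 1.78. The log2 ratio at 24 h was 0.41, within the spread of 0.44. A second probe set had signals of 52.6, 54.5, 119, 99.2, 107 and 104. It too changed between 1 and 3 h, by 2.19-fold against 2.17-fold on the brighter one, and from 3 h on it stayed between 99.2 and 119. Its log2 ratio at 24 h was 1.02, beyond the spread of 0.43. Both probe sets place 48 h above 0 h, by 1.78-fold and 1.98-fold, where IL4R, IFNGR1 and IFNGR2 were within 1.26-fold of it. The third was under the floor on all arrays, at 0.659 to 10.4.

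IL6ST, the shared chain, gave 2 readings. On its brightest probe set the signals were 2208, 2452, 2770, 2866, 3048 and 2863, so every coculture array was above 0 h but by no more than 1.38-fold. On the next they were 435, 613, 894, 841, 954 and 925, with ratios of 2.06 at 3 h and 2.13 at 48 h. The arrays from 3 h on formed a plateau on both. A further 3 probe sets were under the floor at 0 h and above it on all later arrays. The brightest of these had signals of 2.88, 39.9, 118, 122, 51.8 and 86.0, at least 7.53-fold higher at 6 h. On the other two the bounds at 6 h were at least 5.05-fold and at least 4.85-fold. These 3 were lower at 24 h than at 6 or 48 h, a dip that the bright pair does not show. On the probe set with the 4.85-fold bound, however, 24 and 48 h were close for such dim signals, at 38.4 and 50.1. The steps of these 3 were not compared with the spread. The last 2 probe sets were under the floor on all arrays.

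Probe sets of 1 chain often disagreed in size. Another probe set stood at least 2-fold above the brightest one, in its ratio to 0 h, for IL6ST at all 5 coculture times, for IFNGR1 at 1, 3 and 6 h and for IL13RA1 at 6 h. Of 7200 genes with at least 2 measured probe sets, 7.88%, 12.6%, 13.7%, 13.4% and 14.6% showed this at 1, 3, 6, 24 and 48 h. Over 13269 such other probe sets the median difference from the brightest one lay between 0.02 and 0.07 on the log2 scale. For IL6ST all 3 of the probe sets with the largest ratios have the suffix _s_at, which marks probes that can match several transcripts, and RefSeq lists an IL6ST pseudogene (IL6STP1) on chromosome 17. The end-to-end ratio of ACTB was also at its highest on the 0 h array, where these 3 probe sets were lowest. That of GAPDH was 4.69 at 0 h and highest at 24 h, at 4.72. Whether transcript form, the pseudogene or RNA integrity plays a part was not tested.

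**Figure D4:**
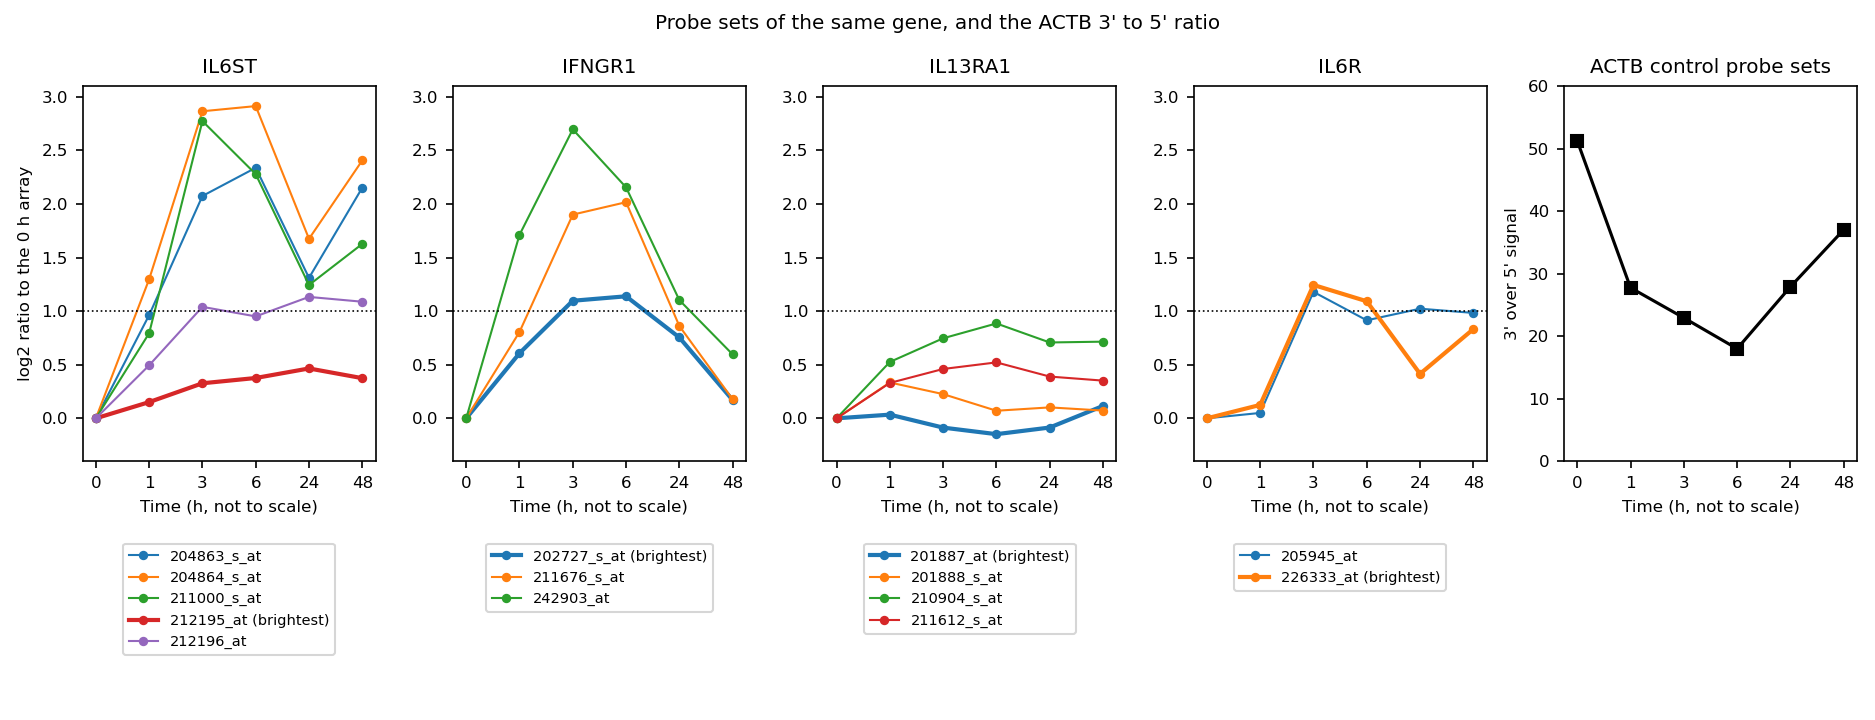
Log2 ratio to the 0 h array against coculture time in h (not to scale) for each probe set above the floor on 1 array or more of IL6ST, IFNGR1, IL13RA1 and IL6R (thick line: brightest; dotted line: 2-fold), and at right the 3' over 5' ratio of the ACTB control probe sets. At 6 h the IL6ST lines run from 0.38 to 2.91, while both IL6R lines are within 0.91 and 1.09; ACTB is lowest at 6 h, at 18.0.

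OSMR and LIFR, the partners of IL6ST for oncostatin M and leukaemia inhibitory factor, were not detected above the floor with any regularity. The brightest of 3 OSMR probe sets had signals of 18.1 at 6 h, just above the floor, and between 5.45 and 11.6 at the other times. The brightest of 5 LIFR probe sets had 16.4 at 0 h and between 0.741 and 11.2 at later times. The other 6 probe sets of these genes were under the floor on all arrays, with a highest value of 14.4. No direction can be read for either gene. LIFR and OSMR are neighbouring genes on chromosome 5.

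IL22RA1, the specific chain of the IL-22 receptor, was highest at 6 and 24 h. Its single probe set had signals of 167, 194, 201, 273, 263 and 149 at 0, 1, 3, 6, 24 and 48 h. The arrays at 6 and 24 h were the highest, and those at 0, 1, 3 and 48 h lay within the spread of their neighbours in order. The ratio to 0 h was 1.64 at 6 h and 1.58 at 24 h, short of 2-fold. At 1.5-fold, 4 of the 10 chains were higher at 3 h (9.51% of measured genes), 5 at 6 h (11.3%) and 3 at 24 h (12%), IL22RA1 among them at 6 and 24 h. At 48 h IL6R alone was (11.1%). No chain was 1.5-fold lower at any time, against 8.09%, 13.6%, 19.1%, 17.1% and 17.5% of measured genes. At any time 24.2% were 1.5-fold higher and 31.8% lower.

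IL10RB, the partner of IL22RA1, did not follow it. Its single probe set had signals of 160.3, 173, 169.7, 161, 124 and 132. The arrays at 24 and 48 h were the lowest, with log2 ratios of -0.37 and -0.28. Each step in the order lay within the spread, but steps between neighbours can hide a gradual change. Against the 1 h array, the log2 ratio at 24 h was -0.48, beyond the spread of 0.32 for that pair of arrays. That pair holds the highest and the lowest of the 6 signals and was picked after seeing them, so such a gap can arise without a change. Against 0 h, the log2 ratio of -0.37 at 24 h lay within the spread of 0.44. In the IL-22 pair at 24 h the log2 ratio was thus 0.66 for IL22RA1 and -0.37 for IL10RB.

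In RefSeq, IL10RB and IFNGR2 lie on chromosome 21 in a run of 4 neighbouring receptor genes, IFNAR2, IL10RB, IFNAR1 and IFNGR2, the IFNAR pair encoding the receptor for type I interferons. Their log2 ratios at 6 h on the brightest probe sets were 0.60, 0.01, 0.20 and 1.46 in that order. IFNAR2 had 2 other probe sets, 2.23-fold and 2.82-fold above 0 h at 6 h, and the signals of the last were 97.2, 189, 247, 274, 90.5 and 129.9. The 4 probe sets of IFNAR1 ran from -0.86 to 0.58 in log2 ratio. IL22RA1 has the lambda interferon receptor gene IFNLR1 as its neighbour on chromosome 1, with signals of 258, 327, 430, 368, 252 and 156, a ratio of 1.67 at 3 h.

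The promoters of the 4 chains that passed 2-fold are shown because these chains moved together at 3 and 6 h. Sequences are from RefSeq (GRCh38.p14), 250 bases before to 50 after an annotated start, 5′ to 3′ on the gene's strand. Capitals mark matches, on either strand, to any of 6 motifs that were searched: AP-1 (TGANTCA), the CRE core (TGACGT), GAS (TTCNNNGAA), a STAT6 form of it with a longer spacer, EGR (GCGNGGGCG) and the NF-kB consensus. All 10 genes matched the table, with 13 starts.
IFNGR1, chr6:137219336-137219635, minus strand: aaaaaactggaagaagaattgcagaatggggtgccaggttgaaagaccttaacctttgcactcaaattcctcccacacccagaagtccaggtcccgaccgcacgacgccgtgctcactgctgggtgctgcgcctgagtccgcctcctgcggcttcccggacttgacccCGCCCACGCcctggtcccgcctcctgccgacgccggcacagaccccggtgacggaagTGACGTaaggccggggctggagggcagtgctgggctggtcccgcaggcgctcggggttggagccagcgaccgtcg
IFNGR2, chr21:33403163-33403462, plus strand: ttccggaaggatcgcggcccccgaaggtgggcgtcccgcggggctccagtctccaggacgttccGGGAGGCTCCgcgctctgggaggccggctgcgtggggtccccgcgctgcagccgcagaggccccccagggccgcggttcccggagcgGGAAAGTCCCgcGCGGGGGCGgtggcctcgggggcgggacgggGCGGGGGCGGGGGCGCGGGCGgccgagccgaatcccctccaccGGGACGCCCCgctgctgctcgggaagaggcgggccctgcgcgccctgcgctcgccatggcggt
IL4R, chr16:27313724-27314023, plus strand: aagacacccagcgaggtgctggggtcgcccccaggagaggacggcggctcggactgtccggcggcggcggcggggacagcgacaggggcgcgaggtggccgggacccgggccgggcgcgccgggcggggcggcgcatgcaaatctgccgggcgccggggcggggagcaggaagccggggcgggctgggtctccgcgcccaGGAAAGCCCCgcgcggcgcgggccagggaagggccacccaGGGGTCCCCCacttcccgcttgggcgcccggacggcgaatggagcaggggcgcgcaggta
IL6R, chr1:154405093-154405392, plus strand: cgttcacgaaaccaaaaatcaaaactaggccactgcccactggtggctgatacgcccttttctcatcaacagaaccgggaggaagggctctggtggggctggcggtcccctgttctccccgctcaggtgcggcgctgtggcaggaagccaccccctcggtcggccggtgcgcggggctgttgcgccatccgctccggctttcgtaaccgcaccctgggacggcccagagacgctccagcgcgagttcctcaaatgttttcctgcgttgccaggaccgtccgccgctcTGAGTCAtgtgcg

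These 4 windows hold different motifs. IFNGR1 has an EGR match and a CRE core, IFNGR2 has 4 EGR matches, of which 3 overlap, and 3 NF-kB matches, IL4R has 2 NF-kB matches, and IL6R has 1 AP-1 match that lies after the start. A second annotated start of IFNGR1 has the CRE core and 1 NF-kB match in its window. Of the 13 windows of the 10 genes, 5 held the NF-kB consensus (1 each of IFNGR1, IFNGR2, IL4R, IL6ST and IL22RA1), against 11.3% of 35116 promoter windows of this length. EGR was in 3 of the 13 (9.43% of all windows), AP-1 in 3 (7.71%), GAS in 3 (7.66%), the CRE core in 2 (7.98%) and the STAT6 form in 0 (6.44%). The windows of 1 gene are not independent: both CRE core windows are of IFNGR1, and 2 of the GAS windows are of LIFR. GAS matches were in LIFR, for which no direction can be read, and in IL10RB. A match is a run of letters and does not show binding.

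The genes most like each of the 4 chains were sought among 10428 other genes above the floor on all arrays, by the root mean square difference of the 5 log2 ratios to 0 h. All 6 arrays are shared by the genes compared. For IFNGR1 they were NAMPT (0.08), ATP2B1 (0.10) and TFE3 (0.10). NAMPT had log2 ratios of 0.60, 1.14, 1.24, 0.63 and 0.10, against 0.61, 1.10, 1.14, 0.75 and 0.17 for IFNGR1. For IFNGR2 they were RPS6KA1 (0.16), ZNF641 (0.18) and FER1L4 (0.18). For IL4R they were SELENOI (0.12), MYC (0.18) and MUC13 (0.24), and for IL6R they were DOHH (0.19), FBXW7 (0.19) and CLIC4 (0.19). Among the 4 chains themselves the difference was smallest between IL4R and IFNGR1 (0.35) and largest between IL6R and IFNGR2 (0.57).

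For the gene lists from here on, the shares to compare are those of all measured genes. At each time 1.9% to 4.21% of them were higher and 1.46% to 6.44% lower, so short lists with no call are near those shares. Other partner chains gave few calls. Of 12 listed, 11 were measured, none passed 2-fold upward and 1 downward, IL27RA at 48 h, the IL-27 receptor chain that pairs with IL6ST. Its signals were 81.6, 64.7, 68.2, 50.3, 41.7 and 26.6, under 0 h at every later time and 3.07-fold lower at 48 h. IL2RG, the other possible partner of IL4R, had signals of 152, 134, 97.0, 148, 175 and 132, with its lowest at 3 h. The median log2 ratio of the 11 chains was -0.02, 0.01, 0.20, 0.00 and -0.13 at 1, 3, 6, 24 and 48 h.

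Among ligands, the Caco-2 cells themselves gave little signal. IL4, OSM, IFNG, IL10, IL22, IL11 and IL26 were under the floor on all arrays, and IL6 was above it at 1 h alone (22.9). Of 18 ligand genes with a probe set, 11 were measured, none was lower, and LIF and EBI3 passed 2-fold upward. LIF, leukaemia inhibitory factor, had signals of 47.8, 68.0, 115, 87.7, 65.8 and 58.3, 2.41-fold higher at 3 h. EBI3, a subunit of IL-27, had 86.5, 132, 98.6, 209, 395 and 138, with ratios of 2.41 and 4.56 on the 6 and 24 h arrays.

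Kinases and STAT factors downstream of the receptors stayed within 2-fold, with 1 exception. JAK1, a kinase carried by several of these chains, came nearest, with signals of 166, 175, 274, 323, 242 and 299 and a ratio of 1.95 at 6 h. STAT6, the factor of IL-4 and IL-13 signalling, had 221, 217, 218, 357, 344 and 288, with its step between 3 and 6 h. STAT3, the factor of IL6ST and IL-22 signalling, had 439, 428, 559.6, 676, 504 and 482. Of 8 measured genes only STAT4 passed 2-fold, at 48 h with a signal of 35.0, and the list median was -0.03, 0.29, 0.38, 0.32 and 0.15. JAK2 was under the floor on all arrays.

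Of 15 negative regulators (SOCS, PIAS and phosphatase genes), none was 2-fold higher or lower at any time, and the list median lay between -0.02 and 0.14. Beside the shares of all measured genes, that count does not set this list apart. SOCS3, which binds IL6ST and blunts its signal, had 78.7, 106, 66.4, 107, 143 and 141. CISH, a feedback inhibitor that STAT5 induces, had a ratio of 1.90 at 6 h. SOCS1, the inhibitor of interferon gamma and IL-4 signalling, had 46.8, 24.6, 30.1, 25.2, 37.1 and 52.4, with its lowest signals at 1 and 6 h. Of 10 genes of receptor cleavage and trafficking, ADAM17, the protease that sheds IL6R, was 2.10-fold higher at 48 h, with 199, 272, 304, 345, 322 and 418. RHBDF2, which carries ADAM17 to the surface, was 2.93-fold lower then, at 16.7 against 49.0 at 0 h.

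Genes known to respond to these cytokines gave calls in both directions, by list. Of 21 interferon gamma responsive genes with a probe set (17 measured), none was lower, and the number higher was 3, 2, 2, 4 and 2 over the coculture times, with median log2 ratios of 0.00, 0.00, 0.23, 0.25 and 0.22. At 6 h CXCL10, a T cell attractant, was higher by at least 15.7-fold and ICAM1, a leukocyte adhesion molecule, by 4.66-fold. IRF1 was also called higher at 1 h, GBP1 and CD274 at 24 h and WARS1 at 48 h. The MHC class II regulator CIITA, HLA-DRA, CXCL9 and IDO1, on the same list, were under the floor on all arrays. Among 19 genes responsive to IL6ST and STAT3 (18 measured), 3, 4, 5, 0 and 0 were higher and 0, 0, 1, 3 and 3 lower. JUNB was 6.19-fold and FOSL1, both AP-1 subunits, 6.13-fold higher at 1 h, while the fibrinogen chains FGA and FGB were 6.99-fold and 6.53-fold lower at 48 h.

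Of 15 genes responsive to IL-4 and IL-13 (7 measured), none was higher at any time and 3 were lower at both 24 and 48 h. These were MAOA, a monoamine oxidase, at 46.5 at 48 h against 222 at 0 h, TFF3, a goblet cell trefoil peptide, at 143 against 505, and HSD3B1, a steroid dehydrogenase, at 350 against 1129. CCL26 and ALOX15, typical targets of IL-4 and IL-13 in human epithelium, were under the floor on all arrays. Of 18 genes responsive to IL-22 (12 measured), 1 was higher, at 48 h, and 1 lower at each time. S100A9, a calprotectin subunit, was the lower one from 1 to 24 h, under the floor on those 4 arrays against 33.7 at 0 h, and DUOXA2 at 48 h.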

How the data were processed

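RNA of Caco-2 cells from 6 coculture times went onto 1 array per time. Per the labels' protocols, ISOGEN was used for extraction and RNeasy for clean-up, with 4 µg of total RNA labelled as biotinylated cRNA. The authors deposited a linear intensity for each probe set; the submitters' processing notes name MAS5, with no version, scaling target or detection call known here. The 2% trimmed mean was 93.8 on each array, and no further scaling was applied. MAS5 scales each array, so total RNA per cell is not measured, and low signals are noisy. The number of arrays limits the precision.

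Of 54675 probe sets, 41097 carried 1 symbol, 1801 several and 11777 none; identifiers of 41043 were found in RefSeq (GRCh38.p14). Signals were floored at the 50th percentile (16.2), log2 was taken, and a gene was represented by its brightest probe set (mean log2 signal). Ratios are to 0 h; where the dimmer array is under the floor, a fold is a lower bound. The receptor chains, gene lists and naming rules were chosen with earlier results of these data known. All 10 chains are named. From the lists of partner chains, ligands, kinases and STATs, regulators, trafficking and responsive genes, but not the marker lists, genes past 2-fold at 2 or more times are named (at most 4 a list), ligands also where under the floor; further genes were named after their values were seen, among them the enterocyte and macrophage markers that changed, STAT3, STAT6, JAK1, SOCS1, SOCS3, CISH, IL2RG, IFNLR1, IFNAR1, IFNAR2, IL27RA, LIF, ADAM17, RHBDF2, STAT4, CCL26, ALOX15, CIITA, HLA-DRA, CXCL9 and IDO1. Python 3.11.15, numpy 2.4.6 and pandas 2.3.3 were used. Alternatives were quantile and common-median scaling, other floors, a pseudocount, other probe sets per gene, the 1 h baseline and other fold sizes.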

Additional observations from a re-analysis of the deposited data

How the results depend on the processing

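With 1 array per time, no array can be left out and no test can be repeated. No paired analysis was possible because no time has more than 1 array and no result comes from a test. Of 167 recomputed counts and medians over the 10 chains, 146 stayed near the reported value, and none reversed; of 440 recomputed single-chain ratios, 390 moved by less than the spread between probe sets and none that had passed 2-fold changed sign. Here that spread is the one between the 1 h and 0 h arrays, and 35 of the 50 ratios that moved beyond it were of IFNGR1, IL13RA1 or IL6ST. IL4R, IFNGR2, IL10RB and IL22RA1 have 1 probe set each, so the choice of probe set cannot move their ratios. Another floor cannot move the ratio of a probe set whose signals are all above it. The 167 also include the counts of lower chains, which were 0 under every setting. The totals thus hold many values that had no room to move or did not differ, and they overstate how stable the rest are. The count of chains higher was 4 at 3 and at 6 h. It was 2 and 1 against the 1 h array as the baseline, and 0 at both times with a size rule of 3-fold. No chain was higher at 1 h, but 2 were at 1.5-fold and 1 without _x_at and _s_at probe sets. None was at 24 h, but 2 were with the median over the probe sets of a gene, 2 with the second-brightest probe set, 3 at 1.5-fold and 1 without _x_at and _s_at probe sets. None was at 48 h, but 1 was with the median over probe sets, with the second-brightest and at 1.5-fold. The median over chains at 3 h was 0.83 with the median over probe sets, 0.69 over the 8 chains above the floor on all arrays and 0.89 with the second-brightest probe set. At 6 h it was 0.90 with the floor at the 30th percentile, 0.90 over the 8 chains and 0.90 with the second-brightest. At 24 h it was 0.58 with the median over probe sets and 0.63 with the second-brightest. The settings over 8 chains and with the second-brightest probe set were chosen after seeing the data. The choice of probe set moves these values because probe sets of IFNGR1, IL6ST and IL13RA1 differ in size of change. OSMR, LIFR and the dimmer IL6ST probe sets are limited by signals about the floor.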
